A study of Homo sapiens with 6 samples.

Results

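Replication-independent histone variants were examined in Jurkat cells, a long-established human leukaemia line of T-cell (T-ALL) origin, with and without the chemokine CXCL12. The 9 genes are H2AZ1, H2AZ2, H2AX, H2AJ, MACROH2A1, MACROH2A2, H3-3A, H3-3B and H1-10. They were chosen by gene symbol, and each was read through the probe set named for it in the platform annotation, or the brightest where there were several. A named probe set was found for 8 of the 9 genes, each with 1 probe set, out of 21448 probe sets and 17687 named genes in all. H3-3A had no probe set named here and was not analysed. The untreated group is 3 arrays of Jurkat cells starved of serum for 90 min and left unstimulated. The CXCL12 group is 3 arrays of the same line, starved likewise and then given CXCL12 at 100 ng/ml for 15 min. All cells had been grown in medium with 10% fetal bovine serum, and both groups come from a single leukaemia line. The titles call the samples biological replicates without saying whether these were separate cultures, so each p-value reflects variation among these 6 samples only, some of which may be technical. The series asked which transcripts differ after stimulation.

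Core histones wrap DNA into nucleosomes, and most are made in S phase from clustered genes whose messages end in a stem-loop. The variants described here are made outside S phase as well, from polyadenylated messages (H2AX makes both kinds), and some are placed into chromatin by dedicated chaperones and remodellers. H2A.Z, the product of H2AZ1 and H2AZ2, marks promoters and is exchanged by the SRCAP and p400 complexes. H2AX carries the phosphorylation mark of broken DNA, the macroH2A proteins bear a large extra domain and are linked to silent chromatin, and the H3.3 protein of H3-3A and H3-3B is deposited at active genes by HIRA and at repeats by DAXX and ATRX. H1-10, also called H1X, is a linker histone, which binds the DNA between nucleosomes.

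The 250 bases before the annotated start site are shown for the H2A.Z pair and the macroH2A pair, whose members are set against each other in the results, and for H3-3B, the gene with the smallest spread between arrays. The sequences are RefSeq's, from build GRCh38.p14, written 5′ to 3′ along the gene. Capitals mark CCAAT, its reverse complement ATTGG, and TATAAA.
H2AZ1 (chr4:99950276-99950525, minus strand): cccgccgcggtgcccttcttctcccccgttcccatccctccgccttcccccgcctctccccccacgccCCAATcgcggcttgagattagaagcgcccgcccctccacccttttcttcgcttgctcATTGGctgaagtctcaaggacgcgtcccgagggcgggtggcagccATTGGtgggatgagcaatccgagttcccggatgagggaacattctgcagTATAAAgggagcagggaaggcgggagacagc
H2AZ2 (chr7:44848088-44848337, minus strand): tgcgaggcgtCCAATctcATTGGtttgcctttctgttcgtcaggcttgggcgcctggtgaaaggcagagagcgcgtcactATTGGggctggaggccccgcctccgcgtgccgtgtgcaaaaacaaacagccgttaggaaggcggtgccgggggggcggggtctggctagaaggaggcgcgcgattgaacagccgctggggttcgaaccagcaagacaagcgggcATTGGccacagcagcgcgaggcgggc
MACROH2A1 (chr5:135399232-135399481, minus strand): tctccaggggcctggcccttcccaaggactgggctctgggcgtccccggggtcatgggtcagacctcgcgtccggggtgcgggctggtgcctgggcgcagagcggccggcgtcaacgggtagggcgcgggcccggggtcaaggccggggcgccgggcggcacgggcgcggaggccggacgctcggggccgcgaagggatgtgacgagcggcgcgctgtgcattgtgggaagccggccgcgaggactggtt
MACROH2A2 (chr10:70052596-70052845, plus strand): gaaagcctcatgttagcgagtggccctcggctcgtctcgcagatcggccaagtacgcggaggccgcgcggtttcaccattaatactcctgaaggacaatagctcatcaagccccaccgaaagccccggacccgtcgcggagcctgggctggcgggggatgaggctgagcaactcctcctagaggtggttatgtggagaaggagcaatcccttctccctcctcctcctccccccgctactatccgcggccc
H3-3B (chr17:75779780-75780029, minus strand): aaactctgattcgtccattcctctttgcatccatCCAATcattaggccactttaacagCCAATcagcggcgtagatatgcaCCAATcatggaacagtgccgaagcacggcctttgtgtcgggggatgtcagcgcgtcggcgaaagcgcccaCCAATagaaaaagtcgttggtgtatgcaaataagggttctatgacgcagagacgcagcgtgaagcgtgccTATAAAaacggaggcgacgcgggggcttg

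The H2A.Z genes differ in these windows although their products are near-identical. That of H2AZ1 holds a TATAAA from 31 to 26 bases before the start and CCAAT on either strand at 3 places. That of H2AZ2 holds CCAAT at 4 places and no TATAAA. H3-3B has both motifs, with CCAAT at 4 places on the strand of the gene. Neither macroH2A gene has CCAAT or TATAAA in its window. Over the 8 genes, CCAAT on either strand was present in 5 (H2AZ1, H2AZ2, H2AX, H2AJ and H3-3B), against 33.0% of 27305 windows of the same length and 84.1% of the 63 windows of replication-dependent histone genes. TATAAA, again on either strand, was present in 4 (H2AZ1, H2AX, H3-3B and H1-10), against 11.1% of all windows and 66.7% of those of replication-dependent histone genes. The cyclic AMP response element TGACGTCA was in 0 of the 8 windows and in 1.77% of all windows. Its shorter part TGACG, which lies within it, was in 3 (H2AZ2, MACROH2A1 and H3-3B), against 21.7%. An EGR1 motif, GCGTGGGCG, and the CArG box of SRF were each in 0 of the 8, against 0.71% and 1.14% of all windows. These are matches of letters in 1 window and say nothing about binding.

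Values are the deposited log2 signals, so a difference of 1 is a 2-fold change. Median signals ran from 6.18 to 6.22 over the 6 arrays. Untreated replicate 1 stood apart, with a mean correlation with the other arrays of 0.982, against 0.987 to 0.989 for the others, so results that rest on it are also given without it. All 12 T cell markers that were named on the array, CD3D, CD3E, LCK and TAL1 among them, were above the log2 mean of 4.44 below which probe sets were left out as dim. Of 13 named markers of other cells, 8 were above it, and their list's median log2 signal was 4.97, against 9.12 for the T cell markers. Summed on the linear scale, the markers of other cells lay between 895 and 928 in untreated arrays and between 899.7 and 943 in CXCL12 arrays. The T cell markers summed to between 11220 and 11713 and between 11009 and 11516. In such bulk samples, fewer cells of a type and less RNA per cell cannot be told apart.

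None of the 8 variant genes passed the test between CXCL12 and untreated arrays. All 8 were above the dim limit, with untreated means from 6.03 to 11.49. Log2 changes, CXCL12 minus untreated, ran from -0.15 for MACROH2A2 to 0.26 for H2AJ, 4 positive and 4 negative, with a median of 0.01. Over all 16086 probe sets tested, the median was 0.00228 and 50.7% of changes were positive. Without untreated replicate 1, the changes of the 8 were negative for all but H2AJ, with a median of -0.05. With all 6 arrays, the limma p adjusted by Benjamini-Hochberg over all probe sets was 0.996 for each of the 8, to 3 digits. At that threshold 0 of 8 genes and 0.0124% of all probe sets passed. At an unadjusted limma p under 0.05, 0 of 8 genes passed, against 4.73% of all probe sets. The groups' arrays overlapped for each of the 8, whereas they did not overlap for 9.54% of all probe sets. For 7 of the 8, both bounds of the 95% interval were smaller than a 1.5-fold change, near the background share of 89.9% of all probe sets.

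**Figure D1:**
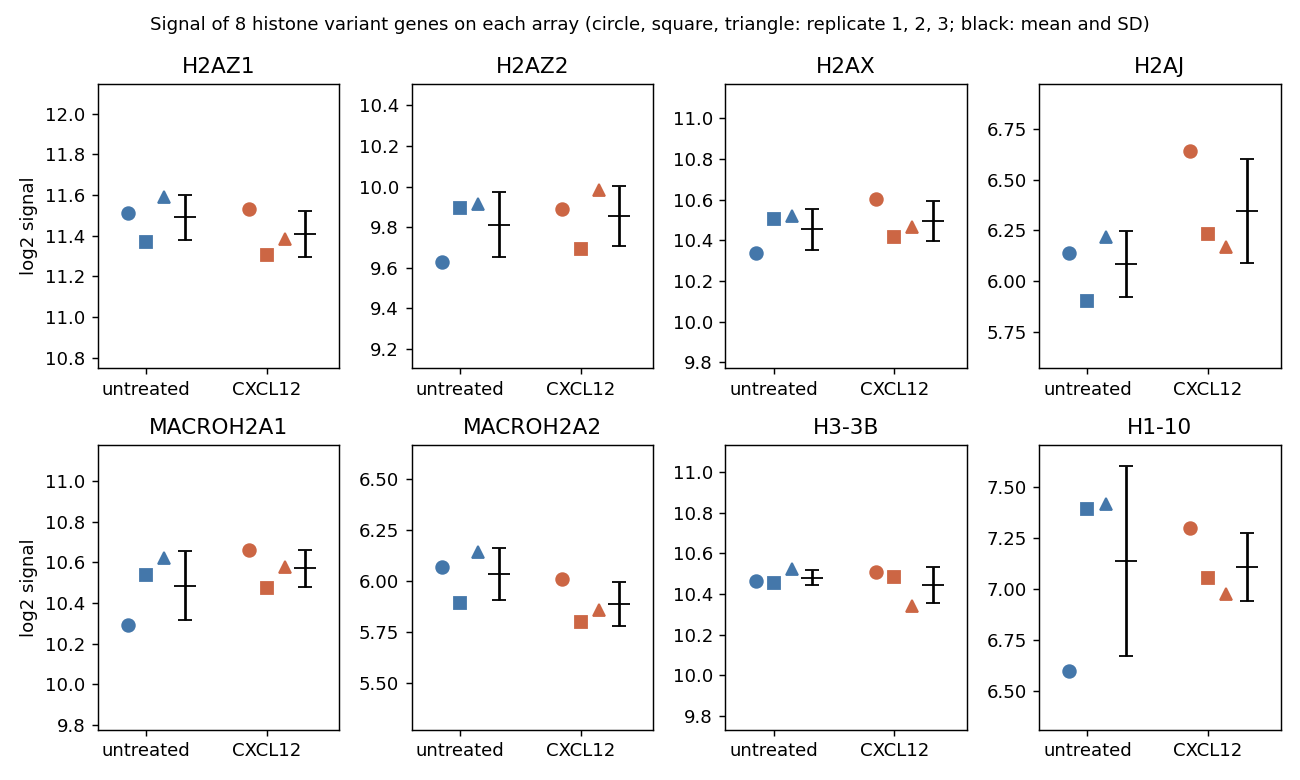
Log2 signal (vertical axis, same span in each panel) of each variant gene on the 3 untreated and 3 CXCL12 arrays. Circle, square and triangle are replicates 1, 2 and 3, and black marks give the mean and SD (n = 3). The groups overlap in every panel, and the untreated circle lies lowest for H1-10, H2AX, H2AZ2 and MACROH2A1.

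The genes of H2A.Z, the variant of promoter nucleosomes, were both well above the dim limit and did not pass. H2AZ1 (probe set TC0400011424.hg.1) had log2 signals of 11.51, 11.37 and 11.59 on untreated replicates 1 to 3, and of 11.53, 11.31 and 11.39 on CXCL12 replicates 1 to 3. The lowest value was CXCL12 replicate 2 and the highest untreated replicate 3, with the groups interleaved. The H2AZ1 change was -0.08 (SE 0.12, 95% interval -0.35 to 0.19, limma adjusted p = 0.996), or 0.945-fold with bounds of 0.784 and 1.14. It ran from -0.14 without CXCL12 replicate 1 or untreated replicate 2 to -0.03 without CXCL12 replicate 2 or untreated replicate 3. H2AZ2 (TC0700010934.hg.1) stood at 9.63, 9.89 and 9.92 on untreated arrays and at 9.89, 9.69 and 9.98 on CXCL12 arrays. Untreated replicate 1 and CXCL12 replicate 2 were the low arrays here, 1 in each group. Its change was 0.04 (SE 0.13, 95% interval -0.25 to 0.33, limma adjusted p = 0.996), and it became -0.05 without untreated replicate 1. RefSeq lists 7 pseudogenes named after H2AZ1 and 1 named after H2AZ2, and whether their transcripts share these probes was not tested.

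The 2 H2A.Z genes can be set against each other within each array, which removes what an array shares. Over the 6 arrays they correlated at Pearson's r of 0.11, so taking the difference removes little. Probe sets differ in response, so only the change of this difference is read, not its level. The difference, H2AZ1 minus H2AZ2, was 1.88, 1.48 and 1.67 in untreated arrays and 1.64, 1.61 and 1.40 in CXCL12 arrays. Its mean went from 1.68 ± 0.20 to 1.55 ± 0.13 (SD, n = 3 each), a change of -0.13 (two-sided exact permutation p = 0.4). With 1 array left out the lowest value was -0.23, when untreated replicate 2 was dropped, the highest -0.02, when untreated replicate 1 was, and it was -0.05 without CXCL12 replicate 3. The groups overlapped, so an unequal response of the pair was not seen at this precision, nor is an equal one shown.

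H2AX, the variant phosphorylated beside broken DNA, did not pass either. Its log2 signals (TC1100012513.hg.1) were 10.34, 10.51 and 10.52 without CXCL12 and 10.60, 10.42 and 10.47 with it. The extremes were replicate 1 of each group, low in the untreated and high in the CXCL12 group, and the remaining 4 arrays lay between. The H2AX change was 0.04 (SE 0.12, 95% interval -0.22 to 0.30, limma adjusted p = 0.996), and it was -0.02 without untreated replicate 1 and -0.01 without CXCL12 replicate 1. RefSeq places DPAGT1 in part over H2AX, and whether the probes read both was not tested.

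H2AJ, a variant that differs from canonical H2A in a few residues, had the largest change of the 8 over all 6 arrays. It read 6.14, 5.90 and 6.22 on untreated arrays and 6.64, 6.23 and 6.17 on CXCL12 arrays (TC1200006946.hg.1). A single array, CXCL12 replicate 1, was high, and CXCL12 replicate 3 lay below untreated replicate 3. The H2AJ change was 0.26 (SE 0.15, 95% interval -0.07 to 0.59, unadjusted p = 0.109 and limma adjusted p = 0.996), or 1.20-fold with bounds of 0.955 and 1.503. It was positive in all 15 refits, though those that altered only the dim filter, replicate block, prior or probe set averaging cannot move this value. The H2AJ change was 0.11 without CXCL12 replicate 1 and 0.17 without untreated replicate 2, where MACROH2A2 moved further, by -0.21 and -0.22. Without untreated replicate 1, H1-10 moved further (-0.30) than H2AJ (0.29). Over all 6 arrays, H2AJ was the 1 gene of the 8 whose interval reached past a 1.5-fold change, and it did so by its upper bound of 1.503 alone.

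The macroH2A genes encode variants with a large domain beyond the histone fold. MACROH2A1 (TC0500012100.hg.1) had 10.29, 10.54 and 10.62 on the untreated arrays, and 10.66, 10.48 and 10.58 with CXCL12. Untreated replicate 1 was again the low array, and the other 5 lay close together. Its change was 0.09 (SE 0.13, 95% interval -0.19 to 0.37, limma adjusted p = 0.996), and -0.01 without untreated replicate 1. The annotation ties this probe set to 4 transcripts, so the splice forms of macroH2A1 are not separated. MACROH2A2 (TC1000007913.hg.1) gave 6.07, 5.89 and 6.14 on untreated and 6.01, 5.80 and 5.86 on CXCL12 arrays. Its lowest array was CXCL12 replicate 2 and its highest untreated replicate 3, while CXCL12 replicate 1 lay above untreated replicate 2. The MACROH2A2 change was -0.15 (SE 0.12, 95% interval -0.42 to 0.12, unadjusted p = 0.260 and limma adjusted p = 0.996), or 0.903-fold. It was negative in its 14 refits, some of which cannot move it, as for H2AJ. It was -0.22 when untreated replicate 2 was dropped and -0.09 when untreated replicate 3 was.

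MACROH2A1 and MACROH2A2 correlated at Pearson's r of 0.01 over the 6 arrays, so here too a difference removes little. Within arrays, the difference MACROH2A1 minus MACROH2A2 was 4.23, 4.65 and 4.48 without CXCL12 and 4.65, 4.68 and 4.72 with it. The CXCL12 arrays all lay above the untreated ones, by a gap of 0.00514 between untreated replicate 2 and CXCL12 replicate 1. Its mean went from 4.45 ± 0.21 to 4.68 ± 0.03 (SD, n = 3 each), a change of 0.23 (two-sided exact permutation p = 0.1, the smallest that 3 against 3 arrays allow). Adjusted over the 2 pairs compared, p was 0.2 for the macroH2A pair by the exact test and 0.4 for the H2A.Z pair. The macroH2A value was 0.12 when untreated replicate 1 was dropped and 0.33 when untreated replicate 2 was. RefSeq places PITX1-AS1 over part of MACROH2A1 and AIFM2 over part of MACROH2A2, and whether the probes read these genes was not tested. The planned pair of H3-3A and H3-3B could not be compared.

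**Figure D2:**
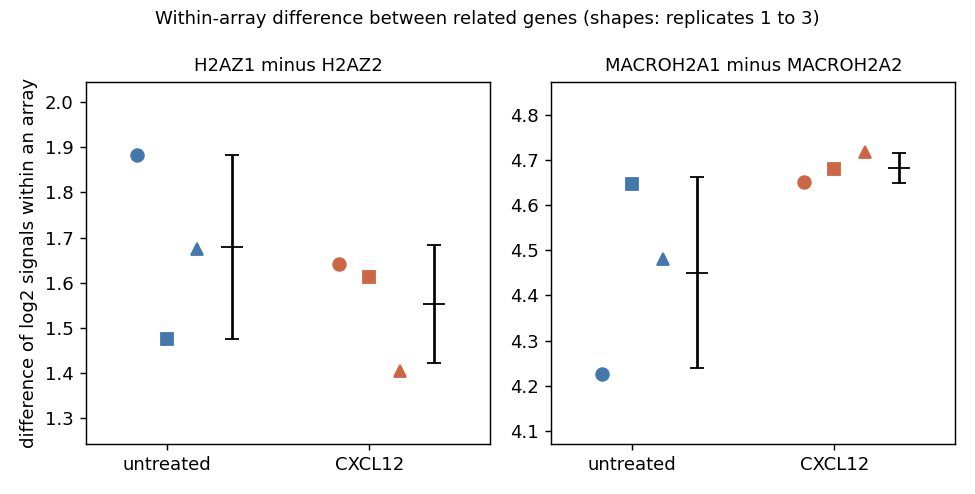
Difference of log2 signals between related genes within each array (vertical axes, of equal span), for H2AZ1 minus H2AZ2 and MACROH2A1 minus MACROH2A2. Circle, square and triangle are replicates 1, 2 and 3, and black marks give mean and SD (n = 3). The CXCL12 macroH2A points lie between 4.65 and 4.72, and the untreated ones between 4.23 and 4.65.

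H3-3B, which encodes the H3.3 protein of active chromatin, was the least variable gene of the 8. Its signals (TC1700012470.hg.1) were 10.46, 10.46 and 10.52 without CXCL12 and 10.51, 10.48 and 10.34 with it. The 6 arrays spanned 0.18, with CXCL12 replicate 3 alone below the rest. The H3-3B change was -0.04 (SE 0.12, 95% interval -0.29 to 0.22, limma adjusted p = 0.996), or 0.975-fold with bounds of 0.819 and 1.16, and it was 0.01 without CXCL12 replicate 3. The SD within groups was 0.07, and 94.7% of all probe sets had a larger one. RefSeq lists 2 pseudogenes named after H3-3B, which were not told apart from it here.

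H1-10, the linker histone, was the most variable. On untreated arrays it read 6.60, 7.39 and 7.42, and on CXCL12 arrays 7.30, 7.06 and 6.98 (TC0300012384.hg.1). Untreated replicate 1 was the lowest of all 6, and the other 2 untreated arrays were the highest. The H1-10 change over all arrays was -0.03 (SE 0.20, 95% interval -0.46 to 0.41, limma adjusted p = 0.996). Without untreated replicate 1 it was -0.30 (95% interval -0.59 to -0.00144, unadjusted p = 0.0491 and limma adjusted p = 0.994), where 4.98% of all probe sets had an unadjusted p under 0.05. Without untreated replicate 2 or 3 it was 0.10 and 0.11, so its direction depended on which array was kept. The SD within groups was 0.35, and 2.91% of all probe sets had a larger one. The antisense gene H1-10-AS1 overlaps H1-10 in RefSeq, and its share of this signal was not tested.

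**Figure D3:**
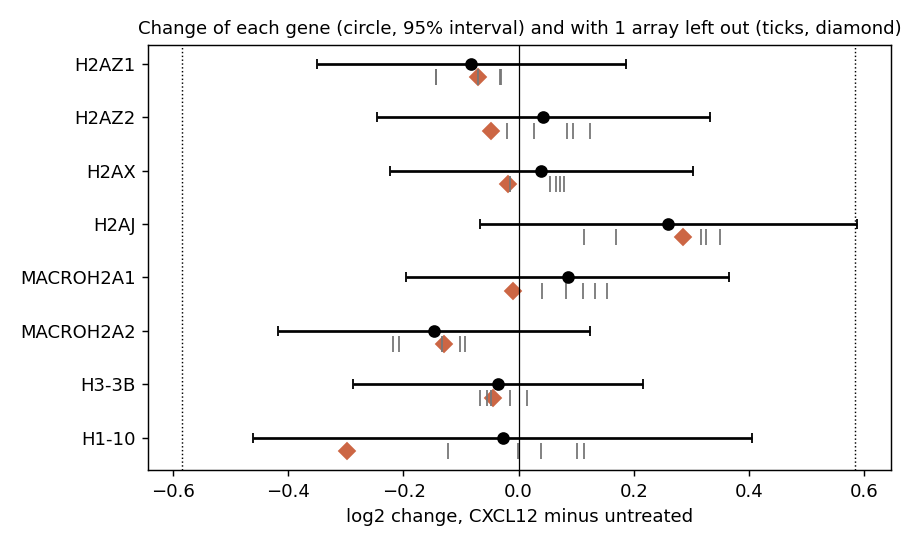
Log2 change of each variant gene, CXCL12 minus untreated (horizontal axis). Circles with bars are the change and its 95% interval over 6 arrays, grey ticks below them the change with 1 array left out, the red diamond that without untreated replicate 1, and dotted lines a 1.5-fold change. All 8 intervals include 0, and the diamond of H1-10 lies at -0.30.

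The arrays that held the extreme values can be counted. The lowest of the 6 values was on untreated replicate 1 for 4 of the 8 genes (H1-10, H2AX, H2AZ2 and MACROH2A1), against 24.96% of all probe sets. The highest value was on untreated replicate 3 for 4 as well (H1-10, H2AZ1, MACROH2A2 and H3-3B), against 11.8% of all probe sets. CXCL12 replicate 1 held the highest value of H2AX, H2AJ and MACROH2A1, against 15.4% of all probe sets, and CXCL12 replicate 3 that of H2AZ2, against 18.6%. Untreated replicate 1 held the highest value of 0 of the 8, against 24.3% of all probe sets. Relative to the untreated mean of each gene, the median of the 8 genes was -0.07, 0.01 and 0.10 on untreated replicates 1 to 3 and 0.11, -0.06 and -0.05 on CXCL12 replicates 1 to 3. The CXCL12 values thus fell on both sides of the untreated middle, and CXCL12 replicate 1 alone lay just past the untreated range. The median within-group SD of the 8 genes was 0.13, against 0.16 for all probe sets tested, and 2 of the 8, H1-10 and H2AJ, were above that.

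None of the measured genes listed as placing, removing, binding or otherwise tied to these variants passed the adjusted threshold. HIRA, SRCAP, EP400 (the gene of p400) and MDC1, listed with H2AX, had no named probe set and were not measured. Of the 10 measured genes of H3.3 deposition, 3 were positive and 7 negative with a median of -0.08, and 0 had an unadjusted limma p under 0.05. Those with the smallest p were ASF1B, a chaperone of newly made H3 and H4, with -0.17 (95% interval -0.44 to 0.10), and DEK, a chromatin protein and H3.3 chaperone, with -0.17 (-0.45 to 0.10), or -0.10 without untreated replicate 1. Of the 16 measured genes that place or remove H2A.Z, 4 were positive and 12 negative with a median of -0.04, and again 0 had an unadjusted limma p under 0.05. VPS72, the subunit that binds the H2A.Z-H2B dimer, had the smallest p of that list. It read 8.19, 7.94 and 7.95 without CXCL12 and 7.61, 7.98 and 7.61 with it, a change of -0.29 (95% interval -0.60 to 0.01, unadjusted p = 0.0593 and limma adjusted p = 0.996). Without untreated replicate 1, its highest array, the change was -0.21 (95% interval -0.53 to 0.10). CXCL12 replicate 2 of VPS72 lay among the untreated arrays and the other 2 below them. YEATS4, a reader of acetylated histones in the same complexes, had -0.10 (-0.35 to 0.14), and was the 1 gene of the 16 whose groups did not overlap, against 9.54% of all probe sets.

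Among 13 measured partners and kinases of H2AX, 8 were positive and 5 negative with a median of 0.03. EYA1, a phosphatase that acts on H2AX, was the 1 of 13 with an unadjusted p under 0.05, against 4.73% of all probe sets. Its signals of 4.64, 4.79 and 4.67 without CXCL12 and 5.19, 5.03 and 4.76 with it were close to the dim limit of 4.44, and the groups overlapped. The EYA1 change was 0.29 (95% interval 0.000528 to 0.59, limma adjusted p = 0.996), and 0.26 (-0.06 to 0.58) without untreated replicate 1. ATR, a kinase that phosphorylates H2AX under replication stress, had 0.19 (-0.10 to 0.49), or 0.29 (-0.000438 to 0.59) without untreated replicate 1. Of the 11 measured genes listed with macroH2A and the linker histones, 5 were positive and 6 negative, with a median of -0.02. In this list, 0 had an unadjusted limma p under 0.05. SETBP1, which binds the histone chaperone SET, had 0.25 (-0.05 to 0.54), and HMGN1, a nucleosome-binding protein, had 0.25 (-0.14 to 0.65). HMGN1 on untreated replicate 1 was 9.10, while its other arrays lay between 9.56 and 9.93, and without that array its change was 0.03 (-0.28 to 0.35). HMGA1, chosen after its values were seen, was the 1 gene of the 11 whose groups did not overlap, near the same 9.54%, with a change of -0.13.

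Other histones were read for comparison. Of 21 other replication-independent variants listed, 7 were measured, with 4 positive and 3 negative changes and a median of 0.06. H1-8, the oocyte linker histone, had 0.22 (95% interval -0.15 to 0.59), with CXCL12 replicate 3 high at 6.09, and H2BW2, a testis variant, had 0.10 (-0.19 to 0.40). None of the 7 had an unadjusted limma p under 0.05. Of the replication-dependent histone genes, 52 were measured, and 12 changes were positive and 40 negative with a median of -0.06, against 4, 4 and 0.01 for the replication-independent variants. Without untreated replicate 1 the median of the latter was -0.05, and that of the replication-dependent list was not computed. In this larger list too, 0 had an unadjusted limma p under 0.05, and 5 of 52 had groups that did not overlap, near the 9.54% of all probe sets. H1-2, a linker histone of S phase, had -0.24 (-0.52 to 0.03), and H4C4, an H4 gene, had -0.36 (-0.77 to 0.05), or -0.14 (-0.48 to 0.19) without untreated replicate 1. The difference between these lists was not tested, and near-identical copies among the replication-dependent genes can share probes. The 12 T cell markers had a median of -0.01 and the 8 measured markers of other cells -0.01. Of these, 0 and 1 had an unadjusted limma p under 0.05, against 4.73% of all probe sets. The 1 was KRT18, with an untreated mean of 4.55, close to the dim limit of 4.44. For 0 of the T cell markers and 1 of the others the groups did not overlap, against 9.54%.

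**Figure D4:**
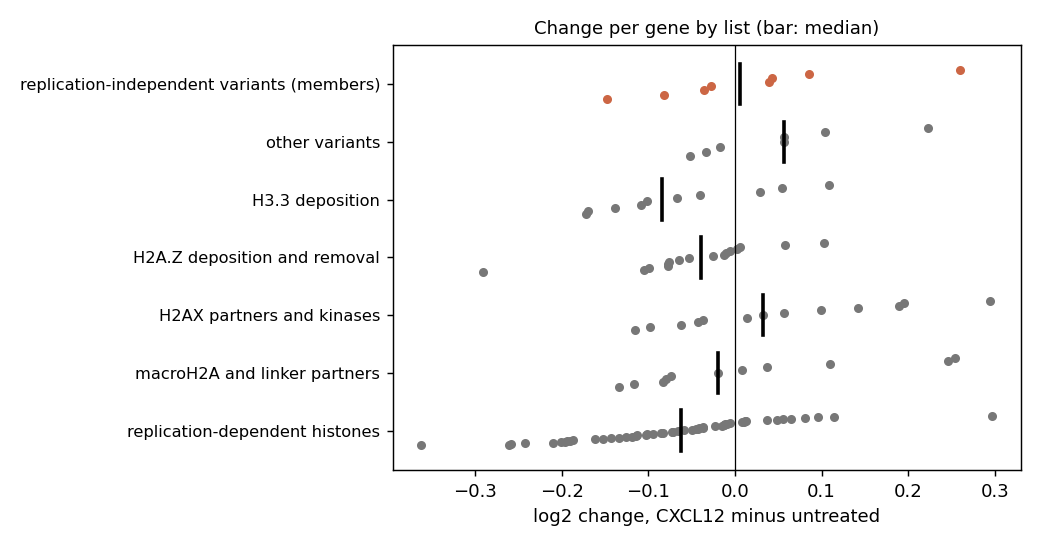
Log2 change, CXCL12 minus untreated (horizontal axis), of each measured gene in 7 lists (rows); dots are genes and bars list medians. Over all 6 arrays, the 8 variant genes in red spread over both sides of 0 with a median of 0.01, and the replication-dependent list has its median at -0.06. Without untreated replicate 1, not drawn here, the median of the 8 was -0.05.

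The genes most like the variants in mean profile were found by correlating 13447 other genes with the mean centred signal of the 8 over the 6 arrays. Signals were not scaled, so the genes with the largest spread weighed most in this mean. Between pairs of the 8, Pearson's r ran from -0.32 (H2AZ2 with H3-3B) to 0.97 (H2AZ1 with MACROH2A2), so the mean does not stand for each gene. RNASET2, a lysosomal ribonuclease, had Pearson's r of 0.990 and Spearman's rho of 1, NDUFB4, a subunit of respiratory complex I, 0.987 and 0.943, and MCEMP1, a membrane protein of myeloid and mast cells, 0.983 and 1. With so many genes and 6 arrays, values this high were bound to be chosen, so no p is given. Without the 2 arrays farthest from the median of the profile, r was 0.940, 0.957 and 0.953. None of the 3 passed the test between groups, with log2 changes of -0.02, 0.06 and 0.02 (limma adjusted p of 0.999, 0.996 and 0.996).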

How the data were processed

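Total RNA was labelled with a whole-transcript kit and hybridized to 6 arrays, per the labels' protocols. The authors deposited 1 log2 value per probe set and array. The submitters' processing notes list RMA (background correction, normalization between arrays and summary per probe set) and the Transcriptome Analysis Console. Settings, versions and build: not given in the sources used here. Of 21448 probe sets, 17709 had 1 symbol in the platform annotation, 0 had several and 3739 are unnamed here. Probe sets with a mean under the 25th percentile were left out as dim. The 16086 left were compared between groups in R 4.3.3 by limma 3.58.1, using lmFit and then eBayes with two-sided p and no covariates, Benjamini-Hochberg adjustment over all of them and a threshold of 0.05. Pairs of genes were compared by exact permutation over arrays. The number of arrays limits the precision. On simulated data of 16086 probe sets with 200 changed, the fit recovered 37.05% of changes of 0.5 and 99.85% of changes of 1 on the log2 scale. Of the simulated probe sets that passed, 7.09% had not been changed, more than the threshold of 0.05 aims at. The simulated noise was independent between probe sets and arrays, no array stood apart, and 200 probe sets changed where 2 passed in the data. The shares recovered can therefore be lower in the data, above all for genes with a large spread. The genes named besides the 8 were the 2 with the smallest p in each list and the 3 closest in profile, with exceptions stated. The variant genes and all lists were chosen with earlier results of these data known. Alternatives were other dim filters, normalizations, weights and priors, a replicate block, the mean of a gene's probe sets, and each array dropped in turn.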

Additional observations from a re-analysis of the deposited data

How the results depend on the processing

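In 15 refits, 0 of the 8 variant genes passed the adjusted threshold, with limma adjusted p from 0.791 upwards. With 1 array left out, 0 to 1 had an unadjusted p under 0.05 (H1-10, without untreated replicate 1), the median change ran from -0.05 to 0.08, the H2A.Z pair from -0.23 to -0.02 and the macroH2A pair from 0.12 to 0.33. Signs turned for 5 genes, only when an array was left out, which left fewer samples: H1-10 ran from -0.30 to 0.11 (0.10, 0.11 and 0.04 without untreated replicates 2 and 3 and CXCL12 replicate 3), H2AX from -0.0181 to 0.0790 (the former without untreated replicate 1, and -0.0145 without CXCL12 replicate 1), H2AZ2 from -0.0486 to 0.124 (the former without untreated replicate 1, -0.02 without CXCL12 replicate 3), MACROH2A1 from -0.0104 (without untreated replicate 1) to 0.15 and H3-3B from -0.0673 to 0.0149 (without CXCL12 replicate 3). H2AZ1 (-0.14 to -0.03), H2AJ (0.11 to 0.35) and MACROH2A2 (-0.22 to -0.09) kept their sign. Other dim filters, the replicate block, the other prior and averaged probe sets cannot move a gene's change. Among refits of all arrays, only the normalizations and array weights could have turned a sign. Over all probe sets, 2 passed, against 1 with no dim filter, median centring or cyclic loess, 3 with the lower 50% left out or a trended robust prior, 4 with array weights, and 1 to 2 with an array left out; the causes were not tested. The lower 50% filter removed MACROH2A2. The 8 genes have 1 probe set each, so averaging probe sets changed nothing. The labels state no pairing; deviations of same-numbered arrays correlated at -0.19, -0.11 and 0.11, and 0 untreated and 1 CXCL12 array correlated best with its own number. The replicate block left 0 genes past the threshold. By the exact test with this block, p was 0.5 for the H2A.Z pair and 0.25 for the macroH2A pair, the latter the smallest that the blocked test allows. Half-widths of 95% intervals had a median of 0.29. On simulated data, with the limits given above, 37.05% of changes of 0.5 passed the adjusted threshold, so changes of that size could be missed.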
